A study of Mus musculus with 6 samples.

Results

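Fatty acid oxidation and the targets of PPARα were examined through 39 genes, picked by symbol from a table of 24063 mouse genes, and all 39 were present. They comprise the receptor gene Ppara, 3 genes of fatty acid uptake, binding and activation, 3 of the carnitine shuttle, 11 of mitochondrial β-oxidation, 8 of peroxisomal oxidation or of enzymes found in both organelles, 2 of ketone body metabolism and fuel choice, 3 of ω-hydroxylation, 4 acyl-CoA thioesterases and 4 other PPARα targets. RNA was sequenced from 6 liver tumors of male C57BL/6 mice, each tumor as its own library. Tumors in both groups had been induced with the carcinogen diethylnitrosamine (DEN, 25 mg per kg at 15 days of age) and were taken at the 24-week time point. The WT group (3 tumors) carried intact Nr2e3, and the Nr2e3-/- group (3 tumors) came from mice lacking this orphan nuclear receptor throughout the body. The methods count as many mice as tumors in each group, while the labels number the tumors without tying them to animals, and p-values measure the spread between these tumors.

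PPARα is a nuclear receptor that binds fatty acids and, paired with the retinoid X receptor RXRα, activates genes whose products take up, activate and oxidize fatty acids in the liver. Long-chain fatty acids are coupled to coenzyme A, carried into mitochondria by carnitine and shortened there by β-oxidation, while peroxisomes shorten very long chains and the Cyp4a enzymes oxidize the far end of the chain. In mouse liver Cyp4a10, Cyp4a14, the acyl-CoA thioesterases, Vnn1, Angptl4, Pdk4 and Fgf21 respond to PPARα agonists or to fasting. Many core β-oxidation enzymes are already abundant without these stimuli. The responsive members named here did not all differ in the same direction between the groups, as given below. Whether these mice were fasted before the tumors were taken is not stated.

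The receptor pair binds a repeat of AGGTCA with 1 base between the copies. This element was searched as AGGTCANAGGTCA, on both strands, in RefSeq promoter windows of GRCm38.p6 that run from 250 bases before to 50 bases after each start. Windows were found for 31 members (34 windows), and 8 members had none. These 8, whose promoters were therefore not searched, were Cyp4a10, Cyp4a12a, Cyp4a14, Vnn1, Angptl4, Acaa2, Decr1 and Hsd17b4. With up to 2 mismatches, 4 of the 34 windows (11.8%) and 1266 of all 32817 windows (3.86%) held a match. With up to 1 mismatch these were 1 (2.94%) and 182 (0.555%). An exact match was held by 0 member windows and by 13 of all windows (0.04%). The matches belonged to Fabp1, Acot4, Slc25a20 and Cd36. The Cd36 window (chr5:17835847-17836146) lies inside the gene as GENCODE places it, from 17888801 on the minus strand, and its stretch is not printed. A match describes these letters and is not a measured binding site. The stretches below show the element in Fabp1, the member with the closest match, and compare the neighbouring thioesterase genes Acot1, Acot3 and Acot4, 3 members whose groups did not overlap. Each is the 120 bases before the RefSeq start, on the plus strand of the gene, with the matched letters in capitals. For Slc25a20, whose match lies after the start (bases 7 to 19), 30 bases are given. GENCODE begins Fabp1 and Acot1 within the stretch shown, and begins Slc25a20 before its stretch, at 108662088.
Fabp1, chr6:71199759-71199878, 1 mismatch, on the opposite strand: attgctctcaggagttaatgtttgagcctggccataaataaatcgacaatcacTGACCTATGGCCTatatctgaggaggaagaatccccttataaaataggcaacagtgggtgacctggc
Acot4, chr12:84038259-84038378, 2 mismatches, on the opposite strand: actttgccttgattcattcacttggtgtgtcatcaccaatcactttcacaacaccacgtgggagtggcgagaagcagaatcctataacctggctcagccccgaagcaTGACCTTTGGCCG
Acot1, chr12:84009382-84009501, no match: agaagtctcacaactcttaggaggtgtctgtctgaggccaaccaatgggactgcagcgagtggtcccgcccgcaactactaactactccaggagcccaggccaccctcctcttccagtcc
Acot3, chr12:84052024-84052143, no match: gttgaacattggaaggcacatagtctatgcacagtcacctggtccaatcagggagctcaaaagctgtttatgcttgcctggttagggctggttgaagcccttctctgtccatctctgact
Slc25a20, chr9:108662134-108662163, 2 mismatches: ctgaatgtAGGTGAAAGGTCGgcggagccg

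Levels are given as normalized CPM, counts scaled to a common library total with edgeR's TMM factors. Total counts per library were between 15376261 and 28690279, and Nr2e3-/- replicate 1 had the lowest. Nr2e3 itself had 0 counts in all 6 libraries, where 3 counts, the limit that a count of 0 allows, correspond to 0.105 to 0.195 CPM. The genotype could therefore not be checked from this gene at this depth, and the limit covers counting error only. The hepatocyte markers Alb, Ttr, Apoa1 and 7 others were abundant in every library, and their summed level ranged from 139800 to 169800 CPM in WT and from 126700 to 147400 CPM in Nr2e3-/- tumors. Most of this sum was Alb (log2 fold change -0.27, overlapping groups). Over the 10 markers the median log2 fold change was 0.22, with 6 above 0, and the groups did not overlap for Tat (1.30), Hnf4a (0.50) and Serpina1c (0.39), all 3 higher in Nr2e3-/- tumors, and for 0 that were lower. Of the Nr2e3-/- libraries, replicate 1 was the nearest to the WT mean for 51.7% of all genes and for 20 of the 39 members (51.3%). All 39 members passed the filter on low counts, which left 13572 genes. Fold changes compare Nr2e3-/- with WT on the log2 scale and come from the quasi-likelihood fit of edgeR. Its p-values are two-sided and were adjusted over those genes by the Benjamini-Hochberg method.

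The ω-hydroxylase Cyp4a14 was 6.43-fold lower in Nr2e3-/- tumors, and the thioesterases Acot3 and Acot1 were 5.21-fold and 2.33-fold lower. Cyp4a10, a relative of Cyp4a14, was 2.002-fold lower with overlapping groups, and the pantetheinase Vnn1 and the fatty acid transporter Cd36 were 1.95-fold and 1.76-fold lower. Angptl4, a secreted inhibitor of lipoprotein lipase, went the other way and was 2.07-fold higher. The 11 mitochondrial β-oxidation enzymes differed by at most 0.41 on the log2 scale, and the receptor gene Ppara by -0.14. The log2 fold change was below 0 for 35 of the 39 members, against 6682 of all 13572 genes (49.2%), and its median was -0.24 against 0.01 over all genes. The members were chosen with earlier results of these data known. Nr2e3-/- replicate 2 held the lowest of the 6 values for 26 of them, and the members are not independent observations. Without Nr2e3-/- replicate 2 the log2 fold change was below 0 for 28 members, the fewest in any fit, with a median of -0.16. Fewer cells of a type and less RNA of a gene in each cell cannot be told apart in bulk tumor RNA, and the hepatocyte markers given above had a median of 0.22.

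No member had an adjusted p-value under 0.05 in edgeR's test, which called 13 of all genes (0.0958%). The lowest adjusted values were 0.093 for Angptl4 and 0.096 for Cyp4a14, Cd36 and Vnn1. Unadjusted p-values were under 0.05 for 1 member that was higher and 9 that were lower, against 11.8% and 9.72% of all genes. The groups did not overlap, with all 3 Nr2e3-/- values on one side of all 3 WT values, for 1 member that was higher and 11 that were lower, against 13.9% and 12.9% of all genes. An exact permutation test of 3 against 3 libraries cannot go below 0.1 for a single gene. Under upper quartile normalization the lower members with an unadjusted p-value under 0.05 numbered 15 and the non-overlapping lower members 14, while that scaling moved the median of all genes to -0.08 and the share of higher genes among all non-overlapping genes from 51.8% to 35.2% (among genes with an unadjusted p-value under 0.05, from 54.8% to 38.2%).

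DESeq2 called 9 members at an adjusted p-value under 0.05. They were Angptl4 (higher, against 4.93% of all genes) and Cyp4a14, Acot3, Acot1, Acot4, Vnn1, Cd36, Bdh1 and Decr2 (lower, against 3.07%). Without Nr2e3-/- replicate 1, edgeR called 1 member that was higher (12.2% of all genes) and 10 that were lower (9.65%). These 11 included 8 of the 9 that DESeq2 called (all but Acot4) and added Acaa1b, Cyp4a10 and Hadh. Non-overlapping members then numbered 20, 1 higher and 19 lower, where 28.0% and 26.9% of all genes separated in these directions. Without WT replicate 1 they numbered 22, 2 higher and 20 lower, beside 18.6% and 17.7% of all genes. Without Nr2e3-/- replicate 2 they numbered 17, 4 higher and 13 lower, beside 19.9% of all genes in each direction.

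**Figure D1:**
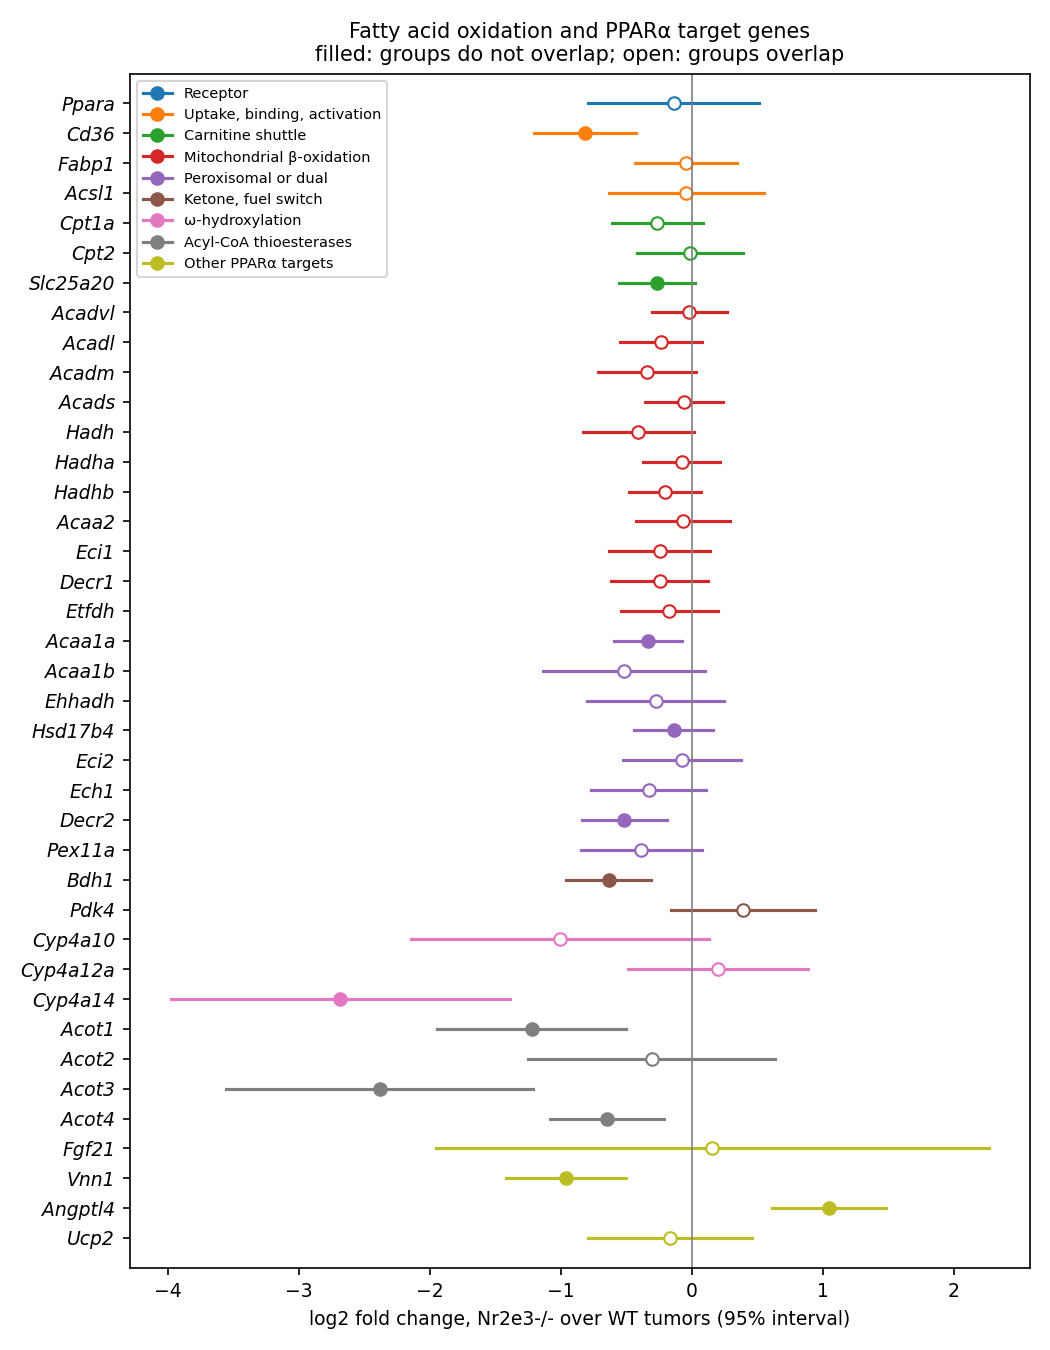
Log2 fold change (x axis) of each of the 39 members with its 95% interval from edgeR, grouped by role (colors). Filled points are the 12 members whose groups did not overlap. Cyp4a14 (-2.68), Acot3 (-2.38) and Acot1 (-1.22) lie farthest to the left, and Angptl4 (1.05) farthest to the right.

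Ppara, on chromosome 15 (85734983 to 85802819, plus strand), had 322, 448 and 412 CPM in WT replicates 1 to 3 and 446, 216 and 413 CPM in Nr2e3-/- replicates 1 to 3. Only Nr2e3-/- replicate 2 lay below the WT range. The log2 fold change was -0.14 (95% interval -0.79 to 0.51, adjusted p = 0.792 from edgeR), and without that library it was 0.13. Rxra, the gene of its partner receptor, was between 466 and 520 CPM in WT and between 439 and 594 CPM in Nr2e3-/- tumors, a log2 difference of 0.07 that turned to -0.015 (upper quartile normalization) or -0.03 (without Nr2e3-/- replicate 3). Per exon length, Ppara stood at 111 ± 18.3 RPKM (SD, n = 3) in WT tumors, beside 140 ± 15.4 RPKM for Cpt1a and 40.6 ± 5.47 RPKM for Cd36.

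Among the genes of uptake, binding and activation, Cd36 alone separated the genotypes. Cd36 (chromosome 5, 17781690 to 17888801) was at 146, 162 and 123 CPM in WT and at 96.9, 80.9 and 67.6 CPM in Nr2e3-/- tumors. Every Nr2e3-/- library was below every WT library, with a log2 fold change of -0.81 (SE 0.17, adjusted p = 0.096 from edgeR, 0.0014 from DESeq2). Fabp1, which carries fatty acids in the hepatocyte cytosol, had the highest level per exon length of all members (5547 ± 513 RPKM in WT, SD, n = 3). Its log2 fold change was -0.04 (95% interval -0.43 to 0.35), and its range was 2763 to 3325 CPM in WT and 2445 to 3269 CPM in Nr2e3-/- tumors. Acsl1, the main acyl-CoA synthetase of the hepatocyte, had the same log2 fold change of -0.04 with a wider interval (-0.63 to 0.55). Without Nr2e3-/- replicate 2, the lowest library for both, these became 0.082 and 0.20.

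In the carnitine shuttle, Cpt1a, the regulated entry step, was at 533, 663 and 621 CPM in WT and at 452, 481 and 583 CPM in Nr2e3-/- tumors. Nr2e3-/- replicate 3 lay inside the WT range, and the log2 fold change was -0.26 (SE 0.15). Slc25a20, the carrier of acylcarnitine across the inner membrane, was at 112, 124 and 117 CPM in WT and at 101, 84.4 and 108 CPM in Nr2e3-/- tumors. These groups did not overlap, yet the gap between the closest libraries was small and the adjusted p-value was 0.265 (edgeR). Cpt2, the inner membrane transferase, differed by -0.015 (95% interval -0.42 to 0.39), and by 0.16 without Nr2e3-/- replicate 2.

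The 11 mitochondrial β-oxidation genes all had a log2 fold change below 0, with a range from -0.41 to -0.02 and a median of -0.20. None had non-overlapping groups or an unadjusted p-value under 0.05. Hadh, the short-chain hydroxyacyl-CoA dehydrogenase, differed by -0.41 (95% interval -0.83 to 0.01), and without Nr2e3-/- replicate 1 by -0.58 with an adjusted p-value of 0.036 (edgeR). Acadm, the medium-chain acyl-CoA dehydrogenase, differed by -0.34 (95% interval -0.72 to 0.03) and its long-chain relative Acadl by -0.23 (-0.55 to 0.08). The very-long-chain dehydrogenase Acadvl differed by -0.02 (-0.30 to 0.27), the trifunctional protein subunit Hadha by -0.08 (-0.37 to 0.21) and the thiolase Acaa2 by -0.07 (-0.43 to 0.29). These intervals leave out a 2-fold difference in either direction. In summed level, the 11 genes held 2952, 3393 and 3296 CPM in WT and 3145, 2437 and 3090 CPM in Nr2e3-/- tumors, so that only Nr2e3-/- replicate 2 lay below the WT range. Without it, Acadvl, Acads and Acaa2 differed by 0.061, 0.058 and 0.068. Hadhb is uncertain, since 19.7% of its 50-base exon windows also occur in other genes, pseudogenes among them.

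All 8 peroxisomal or dually located genes also had a log2 fold change below 0, with a median of -0.33, and 3 of them did not overlap. The smallest difference was that of the isomerase Eci2 (-0.07), which was 0.06 without Nr2e3-/- replicate 2 and 0.012 without replicate 1. Decr2, the peroxisomal dienoyl-CoA reductase (chromosome 17, 26081208 to 26090337), was at 171, 210 and 207 CPM in WT and at 157, 126 and 129 CPM in Nr2e3-/- tumors. The log2 fold change was -0.51 (SE 0.14, adjusted p = 0.127 from edgeR, 0.029 from DESeq2). The thiolase Acaa1a was at 130, 132 and 127 CPM in WT and at 109, 90.3 and 109 CPM in Nr2e3-/- tumors, a log2 difference of -0.34 (SE 0.11). The multifunctional enzyme Hsd17b4 was at 485, 502 and 494 CPM in WT and at 484, 382 and 481 CPM in Nr2e3-/- tumors. Its groups touched nearly, with Nr2e3-/- replicate 1 within 1 CPM of the lowest WT library. The second thiolase, Acaa1b, was at 693, 612 and 661 CPM in WT and at 653, 304 and 418 CPM in Nr2e3-/- tumors. Replicate 1 of the latter lay inside the WT range, the log2 fold change was -0.52 (SE 0.26), and without this library it was -0.85 (adjusted p = 0.017, edgeR). Acaa1a and Acaa1b are uncertain against each other, as 12.9% and 30.5% of their exon windows are shared. Their exons also overlap those of Myd88 and Dlec1, and whether the counting used strand is not stated.

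Bdh1, the mitochondrial enzyme that converts acetoacetate to β-hydroxybutyrate, lay on chromosome 16 (31422280 to 31458901). It was at 278, 361 and 290 CPM in WT and at 217, 186 and 196 CPM in Nr2e3-/- tumors. The groups were well apart, with a log2 fold change of -0.63 (SE 0.14, adjusted p = 0.0999 from edgeR, 0.0032 from DESeq2). Pdk4, a kinase that restrains glucose oxidation and is induced by fasting, was low throughout, at 2.84, 3.82 and 4.68 CPM in WT and 4.57, 5.79 and 4.49 CPM in Nr2e3-/- tumors. The groups overlapped, and the log2 fold change was 0.39 (95% interval -0.16 to 0.94).

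Cyp4a14 (chromosome 4, 115486200 to 115496142, minus strand) had the greatest difference of the 39 members in size. It was at 345, 623 and 385 CPM in WT and at 120, 66.2 and 24.5 CPM in Nr2e3-/- tumors. The lowest WT library was well above the highest Nr2e3-/- library, and the log2 fold change was -2.68 (SE 0.55, 95% interval -3.98 to -1.39, adjusted p = 0.096 from edgeR, 4.1e-06 from DESeq2). The neighbouring Cyp4a10 was at 109, 240 and 117 CPM in WT and at 128, 68.0 and 37.1 CPM in Nr2e3-/- tumors. Nr2e3-/- replicate 1 was within the WT range, and the log2 fold change of -1.002 (SE 0.48) became -1.55 without it (adjusted p = 0.046, edgeR). Cyp4a12a, a male-biased member of the same cluster, differed by 0.20 (95% interval -0.49 to 0.89) and by -0.07 without WT replicate 2, which was the lowest of all libraries at 84.9 CPM. Shared exon windows made up 0.235% for Cyp4a14, 29.8% for Cyp4a10 (with Cyp4a31 and Cyp4a32) and 48.9% for Cyp4a12a (with Cyp4a12b), so the last 2 are uncertain.

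The acyl-CoA thioesterases, which release free fatty acid from its CoA ester, lie side by side on chromosome 12 between 83987861 and 84060402, and the promoter stretches of Acot1, Acot3 and Acot4 are printed above. Acot3 was at 7.76, 21.0 and 19.0 CPM in WT and at 1.39, 3.08 and 4.60 CPM in Nr2e3-/- tumors. This log2 fold change was -2.38 (SE 0.50, adjusted p = 0.098 from edgeR, 7.2e-05 from DESeq2). Acot1, the cytosolic member, was at 13.8, 17.5 and 13.2 CPM in WT and at 9.40, 3.94 and 5.95 CPM in Nr2e3-/- tumors, a log2 difference of -1.22 (SE 0.31, adjusted p = 0.117 from edgeR, 0.0066 from DESeq2). For both genes all Nr2e3-/- libraries were below all WT libraries. Acot4, a peroxisomal member, was at 24.2, 37.4 and 35.0 CPM in WT and at 17.9, 21.8 and 21.8 CPM in Nr2e3-/- tumors, a log2 difference of -0.65 (SE 0.18, adjusted p = 0.135 from edgeR, 0.046 from DESeq2). Acot2, the mitochondrial member, overlapped between the groups, with a log2 fold change of -0.31 (95% interval -1.25 to 0.64) that was 0.02 without Nr2e3-/- replicate 1. Between 4.53% and 27.7% of the exon windows of these 4 genes occur in other genes, other Acot genes among them, so their individual counts are uncertain. Exons of Acot3 and Acot4 also overlap the annotated genes 4732463B04Rik and Gm49366.

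**Figure D2:**
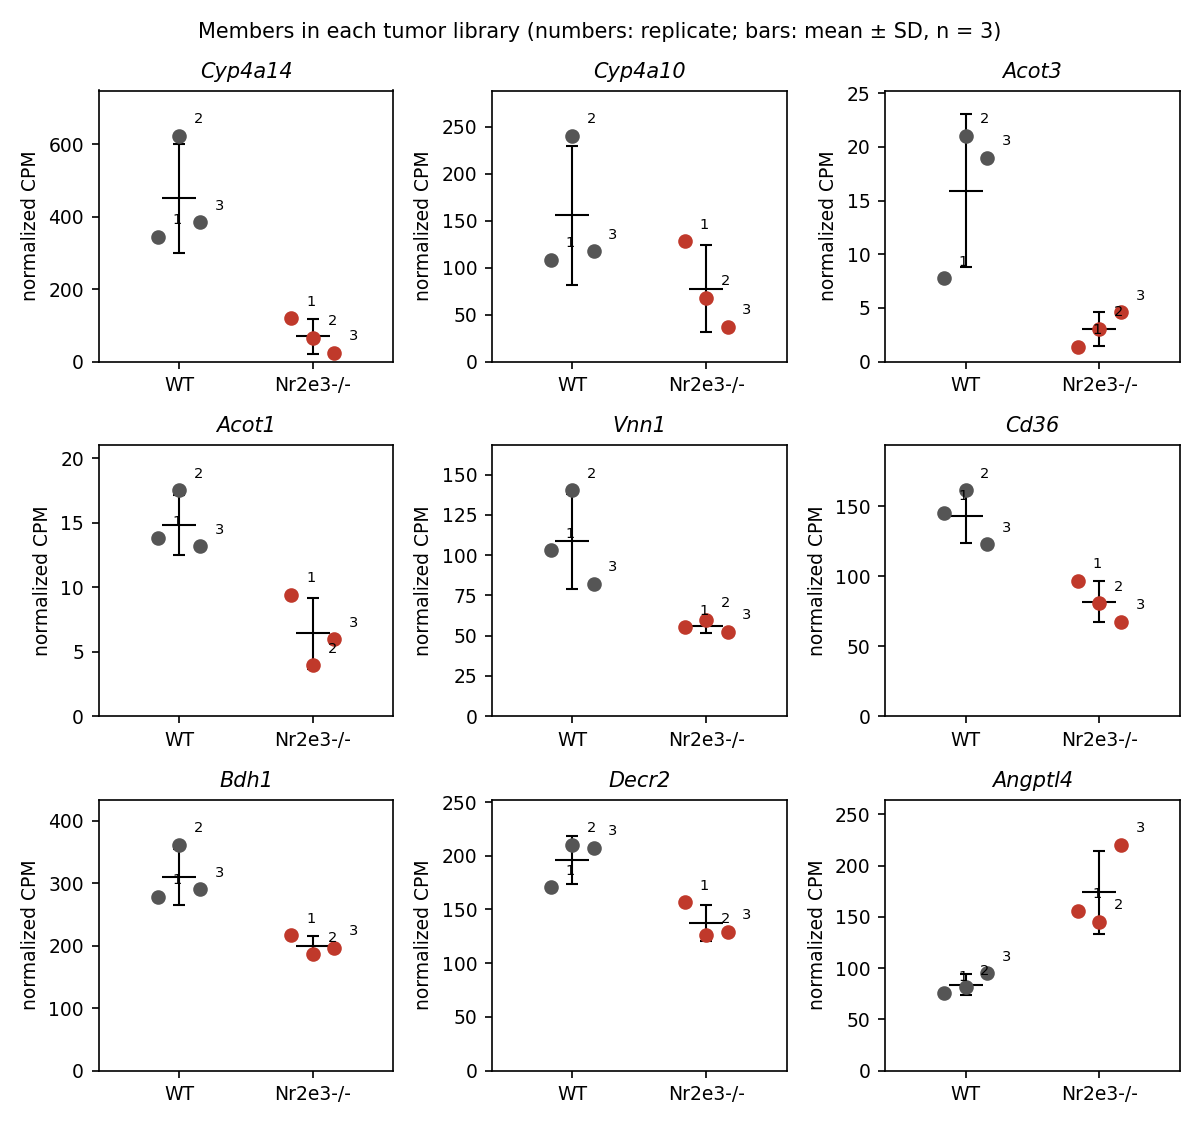
Normalized CPM (y axis, from 0) of 9 members in the 3 WT and 3 Nr2e3-/- tumor libraries. Points are libraries with their replicate number, and bars are the mean and SD (n = 3). Nr2e3-/- points lie below all WT points for Cyp4a14, Acot3, Acot1, Vnn1, Cd36, Bdh1 and Decr2 and above them for Angptl4, while the groups overlap for Cyp4a10.

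Of the 4 other targets, Vnn1 and Angptl4 separated the groups in opposite directions. Vnn1 (chromosome 10, 23894688 to 23905343) was at 103, 140 and 82.1 CPM in WT and at 55.1, 59.8 and 52.3 CPM in Nr2e3-/- tumors. The 3 Nr2e3-/- values lay close together, and the log2 fold change was -0.96 (SE 0.20, adjusted p = 0.096 from edgeR, 0.0010 from DESeq2). Angptl4 (chromosome 17, 33773750 to 33781830) was at 75.5, 81.4 and 95.1 CPM in WT and at 156, 145 and 220 CPM in Nr2e3-/- tumors. It was the one member above all WT libraries in all 3 Nr2e3-/- tumors, with a log2 fold change of 1.05 (SE 0.18, adjusted p = 0.093 from edgeR, 8.3e-05 from DESeq2). Fgf21, a hepatic hormone of the fasting response, was at 3.15, 10.5 and 4.44 CPM in WT and at 0.927, 15.8 and 3.03 CPM in Nr2e3-/- tumors. Its spread within both groups was so wide that the log2 fold change of 0.16 had an interval from -1.95 to 2.27, and without Nr2e3-/- replicate 2 it was -1.58. The uncoupling protein gene Ucp2 differed by -0.17 (95% interval -0.79 to 0.46), and by 0.041 without Nr2e3-/- replicate 1.

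The 3 Nr2e3-/- tumors were not alike. Nr2e3-/- replicate 2 held the lowest of the 6 values for 26 of the 39 members (66.7%), against 24.3% of all genes, and WT replicate 2 held the highest value for 25 members (64.1%), against 13.6% of all genes. The median member stood 0.52 below the WT mean of log2 CPM in Nr2e3-/- replicate 2, 0.14 below in replicate 1 and 0.20 below in replicate 3, while the median over all genes was within 0.02 of the WT mean in every library. Cyp4a14, Cyp4a10, Cd36 and Vnn1 did not follow this order, and were lowest in Nr2e3-/- replicate 3. Acot3 was lowest in replicate 1. The median over the members remained below 0 in every fit, between -0.33 and -0.16.

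**Figure D3:**
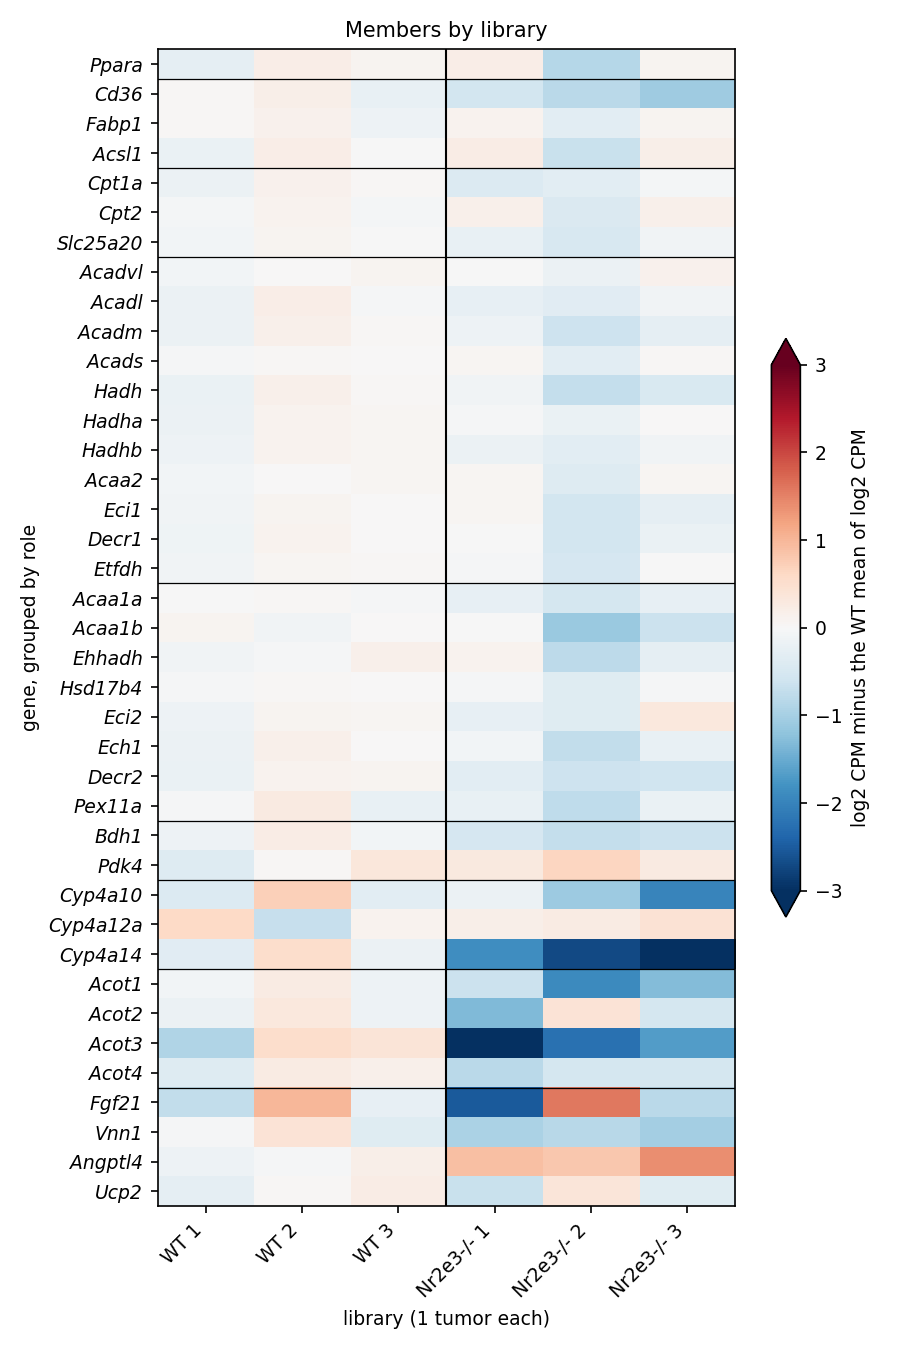
Log2 CPM of each of the 39 members (rows, grouped by role) in each library (columns), as the difference from the mean of the 3 WT libraries (color, blue is lower). The column of Nr2e3-/- replicate 2 is blue for most mitochondrial and peroxisomal genes, whereas Cyp4a14, Acot1, Acot3, Cd36 and Vnn1 are blue in all 3 Nr2e3-/- columns.

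Other genes of the pathway were read from lists of 110 genes that are not members, of which 108 passed the filter. Acot5 and Aqp3 did not, with at most 2 counts in any library. In edgeR's test 0 were called, and unadjusted p-values under 0.05 numbered 5 higher and 18 lower (11.8% and 9.72% of all genes). DESeq2 called 4 higher and 9 lower (4.93% and 3.07% of all genes), and without Nr2e3-/- replicate 1 edgeR called 10 higher and 21 lower (12.2% and 9.65%). The groups did not overlap for 7 higher and 22 lower genes (13.9% and 12.9% of all genes). The median log2 fold change was -0.15, and 74 of 108 (68.5%) were below 0. The lists held 28 mitochondrial genes with a median of -0.12, 22 peroxisomal genes with -0.16, 30 PPARα targets with -0.21, 22 regulators with -0.08 and 6 ketone body genes with 0.09.

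Among those that were lower with groups that did not overlap, Abcd2, a peroxisomal importer of very long-chain acyl-CoA, was at 87.3, 139 and 81.8 CPM in WT and at 36.2, 41.3 and 23.4 CPM in Nr2e3-/- tumors. Crat, carnitine acetyltransferase, was at 45.6, 62.6 and 42.7 CPM in WT and at 28.6, 19.2 and 23.4 CPM in Nr2e3-/- tumors. Their log2 fold changes were -1.61 (SE 0.28) and -1.09 (SE 0.20). Pparg, the relative of Ppara that promotes lipid storage, was at 16.7, 18.6 and 15.99 CPM in WT and at 6.42, 10.02 and 6.81 CPM in Nr2e3-/- tumors, a log2 difference of -1.13 (SE 0.19). Cidea, a lipid droplet protein, was at 7.26, 5.75 and 3.82 CPM in WT and at 1.19, 1.596 and 0.811 CPM in Nr2e3-/- tumors, with a log2 fold change of -2.20 (SE 0.34). Krt23, a keratin gene counted among PPARα targets, was at 15.7, 17.9 and 5.20 CPM in WT and at 2.71, 2.60 and 2.001 CPM in Nr2e3-/- tumors, with a log2 fold change of -2.40 (SE 0.46). DESeq2 called all of these 5, with adjusted p-values from 2.7e-06 to 0.00028, whereas those of edgeR were 0.086 (Cidea) or 0.093. The coactivator gene Ppargc1a was at 7.99, 8.19 and 14.2 CPM in WT and at 7.42, 6.57 and 4.60 CPM in Nr2e3-/- tumors, a log2 difference of -0.71 (SE 0.29, adjusted p = 0.216 from edgeR).

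Higher values with groups that did not overlap were found for Acsl4, an acyl-CoA synthetase that prefers arachidonic acid, at 221, 155 and 175 CPM in WT and at 288, 462 and 460 CPM in Nr2e3-/- tumors (log2 fold change 1.13, SE 0.22). Scp2, a peroxisomal thiolase and sterol carrier, was at 1904, 1593 and 1733 CPM in WT and at 2360, 2296 and 2645 CPM in Nr2e3-/- tumors (0.48, SE 0.13). The transporter genes Slc16a6 and Slc16a1, both from the ketone body list, differed by 1.46 (SE 0.39) and 0.58 (SE 0.19). The transferrin receptor gene Tfrc differed by 0.64 (SE 0.15). Of these 5 genes, DESeq2 called all but Slc16a1. Plin2, which coats lipid droplets and is a PPARα target, was between 407 and 824 CPM in WT and between 324 and 974 CPM in Nr2e3-/- tumors (0.38, SE 0.44).

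**Figure D4:**
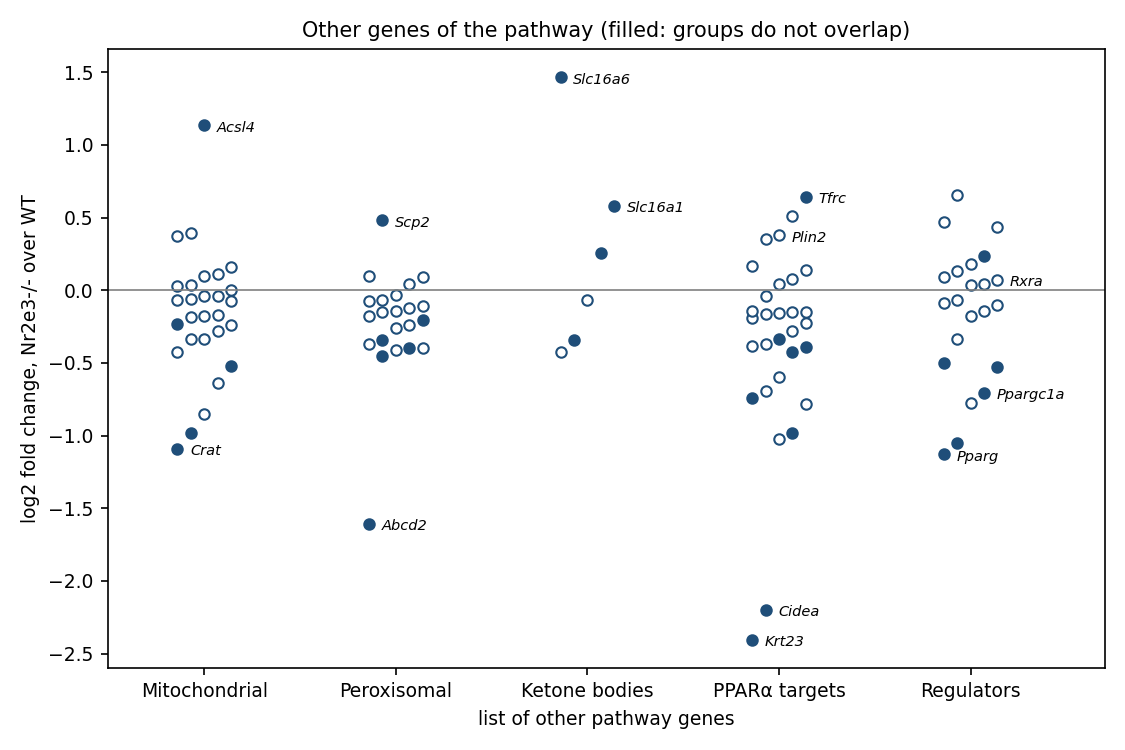
Log2 fold change (y axis) of the 108 other pathway genes by list (x axis, points spread sideways for clarity). Filled points are the 29 genes whose groups did not overlap. Krt23 (-2.40), Cidea (-2.20) and Abcd2 (-1.61) lie lowest, and Slc16a6 (1.46) and Acsl4 (1.13) highest.

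Markers of other cells and states also differed between libraries, and their part in the results was not tested. Of 6 adipocyte markers, Adipoq, Plin1, Lep and Retn had at most 2 counts in any library, while Cfd (log2 fold change -2.13) and Adrb3 (-1.25) were low and did not overlap. The 8 macrophage markers had log2 fold changes from 0.09 to 0.69, none with an unadjusted p-value under 0.05, and their sum ranged from 328 to 417 CPM in WT and was 285, 725 and 376 CPM in Nr2e3-/- replicates 1 to 3. Neutrophil markers summed to between 3.19 and 5.31 CPM in WT and to 2.78, 21.8 and 13.5 CPM in the Nr2e3-/- libraries. Lymphocyte markers summed to 2.77 to 8.999 CPM and 1.46 to 5.27 CPM, stromal markers to 243 to 266 CPM and 158 to 277 CPM, endothelial markers to 352 to 371 CPM and 305 to 371 CPM, and red cell genes to 128 to 180 CPM and 208 to 288 CPM in WT and Nr2e3-/- tumors, respectively. The biliary sum, mostly Spp1, was 57.0 to 118 CPM in WT and 68.8, 428 and 185 CPM in the Nr2e3-/- libraries. Pancreas and muscle markers had at most 3 counts in any library. Of 10 clock genes that peak toward the night, 8 were below 0 on the log2 scale, from Per3 (-1.04) and Dbp (-0.51), the 2 whose groups did not overlap, to Nr1d2 (0.03) and Bhlhe41 (0.56) above it. Their median was -0.28, and their sum was 780 to 867 CPM in WT and 775, 586 and 595 CPM in the Nr2e3-/- libraries. The 4 tested clock genes of the opposite phase had a median of -0.10. Among them Nfil3 did not overlap, at 7.91, 9.13 and 9.78 CPM in WT and at 13.2, 45.6 and 46.1 CPM in Nr2e3-/- tumors (log2 fold change 1.97, adjusted p = 0.102 from edgeR, 0.00023 from DESeq2). The hour of collection is not stated. Genes of the fasted state had a median of 0.29 and those of the fed state of 0.10.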

How the data were processed

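RNA-seq of 3 WT and 3 Nr2e3-/- DEN-induced liver tumors was analysed. The authors prepared TruSeq libraries from total RNA, aligned single-end reads to mm10 (GRCm38) with TopHat and counted reads per gene with featureCounts, and the deposited values used here are raw counts. The strand setting and the versions of these tools are not given in the sources used here. The submitters' processing notes also name Bowtie2 2.4.5 and SAMtools 1.14. The authors' normalized table and their DESeq comparison (fold changes and p-values) were not used. Samples were grouped by title, and dose, age and time point come from the paper.

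Counts were filtered with filterByExpr (minimum count 10, minimum total 15), normalized by TMM and tested with edgeR 4.0.16 (quasi-likelihood F test, genotype only) in R 4.3.3. Alternatives were DESeq2 1.42.0 (18815 genes, of which 5114 had no adjusted p-value), limma-voom 3.58.1, RLE or upper quartile scaling, other filters, the replicate block and leaving out each library. Limma-voom with sample quality weights was chosen after seeing the data. RPKM used GENCODE vM21 exon lengths. The scripts were tested on simulated data. The members and lists were chosen with earlier results of these data known. Members with non-overlapping groups or an unadjusted p-value under 0.05, and 9 fixed ones, are given in every library. From the pathway lists the 5 most extreme non-overlapping genes in each direction with an unadjusted p-value under 0.05 are named, with 5 fixed ones, of which 2 are not reported here. One older symbol was matched, and Ly6g was not found in the table.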

Additional observations from a re-analysis of the deposited data

How the results depend on the processing

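The median log2 fold change of the members remained between -0.33 and -0.16 under all 14 alternatives, and between -0.30 and -0.16 with single libraries left out. The number of genes called over the whole table, 13 in edgeR, was 8 under upper quartile normalization, 1096 with DESeq2, 7 with limma-voom, 2360 with limma-voom and sample quality weights (chosen after seeing the data), 70 with no filter beyond 1 count and 7 with at least 10 counts in every library. With single libraries left out it lay between 0 and 3022, the highest without Nr2e3-/- replicate 1. Members called numbered 9 with DESeq2, 9 with the weights, 0 to 11 with single libraries left out, and 0 under the other alternatives. Other pathway genes called numbered 13 with DESeq2, 22 with the weights, 3 with no filter and 0 to 31 with single libraries left out. Non-overlapping members, 12 with all libraries, numbered 13 to 22 with single libraries left out, where fewer samples separate more easily. The causes of the other shifts were not tested.

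The replicate block called 0 genes (2438 at an unadjusted p-value under 0.05) and 0 members (12 unadjusted), with a median of -0.26. The labels give no pairing, and samples of the same number correlated in their deviations from the group means by -0.08, 0.22 and 0.02, so the numbers were not taken as pairs.

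Signs turned for the following genes. With the weights the log2 fold change was 0.025 for Acsl1, 0.041 for Cpt2, 0.05 for Acadvl, 0.11 for Eci2 and -0.44 for Fgf21. Fgf21 was also -0.31 with limma-voom and -0.41 under the replicate block, and Rxra was -0.015 under upper quartile normalization. With single libraries left out, the range was -0.14 to 0.068 for Acaa2, -0.11 to 0.058 for Acads, -0.087 to 0.061 for Acadvl, -0.87 to 0.015 for Acot2, -0.18 to 0.20 for Acsl1, -0.11 to 0.16 for Cpt2, -0.074 to 0.53 for Cyp4a12a, -0.30 to 0.06 for Eci2, -0.12 to 0.082 for Fabp1, -1.58 to 0.82 for Fgf21, -0.32 to 0.13 for Ppara, -0.028 to 0.18 for Rxra and -0.52 to 0.041 for Ucp2. The depth of 15376261 to 28690279 counts limits Nr2e3, Acot5 and Aqp3.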

Other observations

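Further genes of the pathway lists, named here after their values were seen, lay outside the rule for named genes. Plin4, a lipid droplet coat protein, was at 18.6, 23.1 and 19.5 CPM in WT and at 11.0, 8.98 and 11.0 CPM in Nr2e3-/- tumors, with a log2 fold change of -0.98 (SE 0.14, adjusted p = 0.084 from edgeR, 2.1e-05 from DESeq2). Aldh3a2, the fatty aldehyde dehydrogenase that acts after the Cyp4a enzymes in ω-oxidation, was at 483, 506 and 439 CPM in WT and at 337, 259 and 258 CPM in Nr2e3-/- tumors. This log2 fold change was -0.74 (SE 0.14, adjusted p = 0.093 from edgeR, 0.00046 from DESeq2). In both genes all 3 Nr2e3-/- libraries were below all 3 WT libraries, as 12.9% of all genes were.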
